A study of Homo sapiens with 2 samples.

Results

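The levels of 9 genes linked to p53, the tumour suppressor transcription factor, or to growth arrest were read in 2 RNA-seq libraries. Both libraries were of 786-O, a widely used VHL-deficient cell line derived from a human clear cell kidney cancer. These genes, CDKN1A, GADD45A, GADD45B, SESN1, SESN2, GDF15, PLK3, BTG2 and MDM2, were chosen by symbol, and each matched 1 gene model of the 22585 symbols in the tables. One culture had 25 mM glucose in its medium and the other 0 mM, and the sample titles name the same line for both and no further treatment. The labels also carry a code for each culture (LucF at 25 mM, LucG at 0 mM) that they do not explain, and they give no duration for the glucose withdrawal. With 1 library per condition there was no replicate and no test, so that higher and lower refer to these libraries, and a difference between cultures cannot be told apart from glucose. In bulk RNA, a change in the share of cells that express a gene and a change in RNA per cell cannot be told apart either.

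p53 is a transcription factor that damaged or stressed cells stabilise, and its targets arrest the cell cycle, repair DNA, restrain growth or kill the cell. MDM2, a p53 target itself, is the ubiquitin ligase that degrades p53 and so closes a feedback loop. Most of these genes are also known to answer signals other than p53. CDKN1A, GADD45A, GDF15 and SESN2 respond to the integrated stress response, in which ATF4 and CHOP raise transcription, and GADD45B, BTG2 and PLK3 are immediate-early genes that serum or stress induces within a short time. The gene of p53 itself is not among the 9 and was not analysed here.

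Promoter sequence is shown for the genes that were higher without glucose, CDKN1A, GADD45A, GDF15 and PLK3, of which all but GADD45A had a RefSeq promoter window, running from 250 bases before to 50 after the transcription start (GRCh38.p14). The 150 bases before the start of those genes are shown 5′ to 3′ on the gene's strand. One start of SESN1 is shown beside them, as the only promoter window of these genes with an exact match to the p53 half-site. That half-site was searched as RRRCWWGYYY, where R is A or G, W is A or T and Y is C or T. Capitals mark the GC boxes (GGGCGG) in CDKN1A, the GC boxes, the CCAAT box and the TATA box (TATAAA) in GDF15, the C/EBP-ATF composite match (TGATGNAA) and a GC box in PLK3, and the p53 half-site in SESN1, each on either strand. The stretches lie at chr6:36678564-36678713 (plus), chr19:18386008-18386157 (plus), chr1:44800227-44800376 (plus) and chr6:109008989-109009138 (minus), in the order printed.
CDKN1A: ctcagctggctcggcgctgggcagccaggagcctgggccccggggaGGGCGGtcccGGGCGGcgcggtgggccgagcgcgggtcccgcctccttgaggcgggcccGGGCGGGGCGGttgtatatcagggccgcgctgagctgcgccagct
GDF15: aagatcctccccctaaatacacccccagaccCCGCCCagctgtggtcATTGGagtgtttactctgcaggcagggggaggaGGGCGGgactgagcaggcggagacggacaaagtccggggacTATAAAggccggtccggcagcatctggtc
PLK3: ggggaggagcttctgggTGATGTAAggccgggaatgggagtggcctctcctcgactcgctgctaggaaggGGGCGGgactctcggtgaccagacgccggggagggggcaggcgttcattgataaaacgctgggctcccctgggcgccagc
SESN1: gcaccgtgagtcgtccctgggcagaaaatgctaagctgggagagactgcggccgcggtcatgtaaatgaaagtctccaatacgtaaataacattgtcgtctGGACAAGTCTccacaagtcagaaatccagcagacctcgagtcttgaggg

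Of the 9 genes, 8 had 13 promoter windows in all, 4 of them for MDM2 and 3 for SESN1. The TGATGNAA composite, a sequence that C/EBP-ATF dimers such as those with ATF4 or CHOP are known to bind, occurred in PLK3 alone, first base at -133 from the start, against 3.62% of all 35116 windows. An exact match to the p53 half-site occurred in 1 of the 13 windows and in 6.63% of all windows. Sites that differ from the searched letters were not looked for. TATAAA stood at -29 in GDF15 and at -31 in GADD45B, against 11.5% of all windows. GGGCGG occurred in 12 of the 13 windows, from 7 genes, against 45.0% of all windows. Some windows of MDM2 overlapped, so the same match could be counted in more than 1 window. TGANTCA, the AP-1 site (7.71% of all windows), matched in 2 overlapping windows of MDM2, and CCAAT (34.6%) in 10 of the 13 windows, from 6 genes. TGACGTCA, the cAMP response element (1.85%), and the ER stress element, which contains CCAAT (0.0769%), matched in none. Such matches describe these letters in these windows and say nothing of whether a factor binds, and known p53 sites of several of these genes lie outside them.

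Summed counts came to 27317584 with glucose and 31345828 without. Levels are given as CPM, which are counts per 1e6 after TMM scaling of the library totals. A gene counted as measured from 20 counts over both libraries, as 14239 symbols did, all 9 genes among them. A gene was called higher without glucose when the exact 95% counting interval of its ratio lay wholly above 2-fold, and lower when it lay wholly below 0.5-fold. Small RNA genes (snoRNAs, scaRNAs, microRNAs) made up 5.83% of all counts at 25 mM and 7.99% at 0 mM, and leaving them out changed none of the 9 calls. The renal lineage factor PAX8 stood at 244 and 232 CPM, while 8 of 17 markers of other cell types had too few counts to be measured, among them PTPRC, PECAM1 and HBB. The summed CPM of the 9 measured markers was 286 with glucose and 356 without, most of it LCP1 (253 and 320 CPM). Of these, CD68 was higher (10.7 and 25.6 CPM) and LUM lower (10.6 and 3.25 CPM) by the rule, and the globin gene HBA1 was at 0 counts in both libraries. Of 13 renal markers, 1 was higher and 4 were lower, against 3.74% and 6.20% of all measured genes. The part of other cell types in these ratios was not tested.

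By this rule 4 of the 9 genes were higher without glucose and 0 were lower, where the rule called 3.74% of all measured genes higher and 6.20% lower. GADD45A was 5.12-fold higher, GDF15 4.40-fold, CDKN1A 3.55-fold and PLK3 2.77-fold. With 1.5-fold in place of 2-fold, 5 of the 9 were higher and 0 lower, against 10.2% and 12.6% of all measured genes, and with 3-fold 3 were higher and 0 lower, against 1.38% and 2.13%. SESN2 and GADD45B were higher by less than 2-fold, MDM2 was nearly level, and SESN1 and BTG2 had a lower CPM without glucose but did not pass the rule. The median log2 ratio of the 9 genes was 0.78, and that of all measured genes 0.01 with quartiles at -0.45 and 0.42. The genes were put together with earlier results of these libraries known, so the count and the median describe the 9 genes and are no evidence about p53 targets in general.

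**Figure D1:**
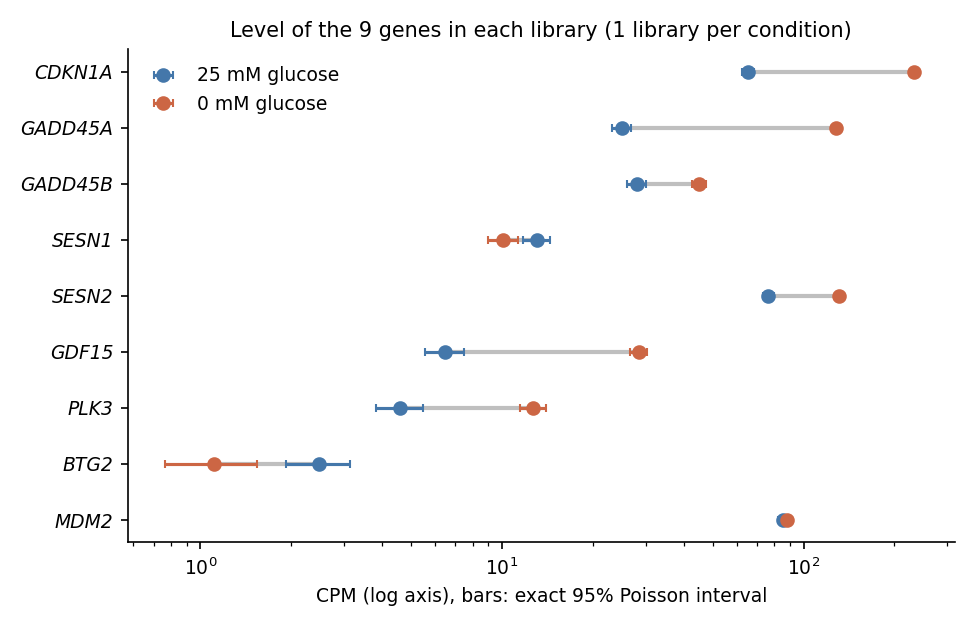
CPM (log axis) of the 9 genes in the library with 25 mM glucose (blue) and with 0 mM glucose (orange), 1 library each, with exact 95% Poisson intervals. CDKN1A, GADD45A, GDF15 and PLK3 are far apart between the libraries, and the 2 points of MDM2 (85.7 and 87.9 CPM) overlap.

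**Figure D2:**
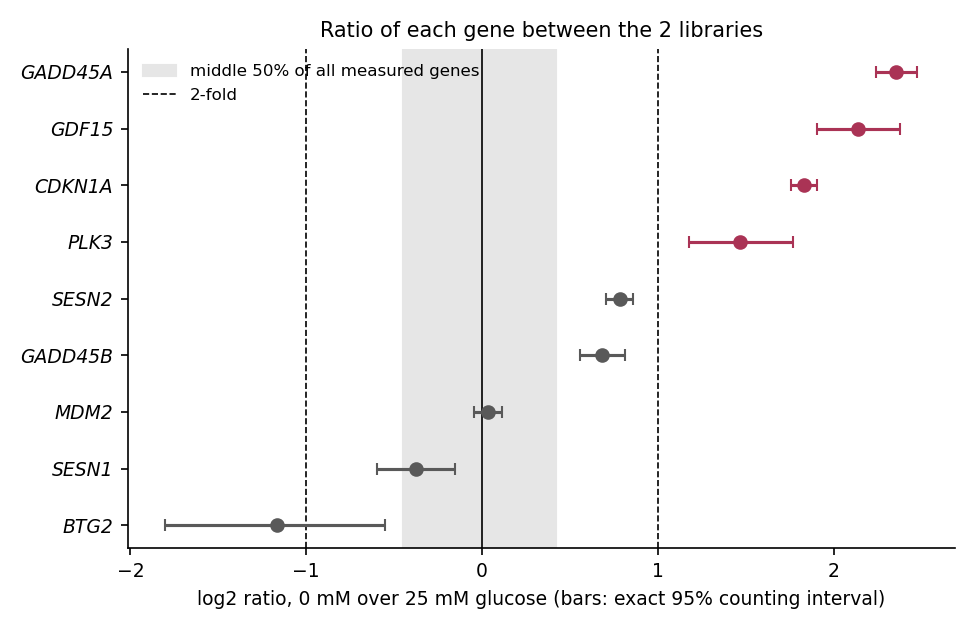
log2 ratio of each of the 9 genes, 0 mM over 25 mM glucose, with exact 95% counting intervals; dashed lines mark 2-fold and the grey band the middle 50% of all measured genes (-0.45 to 0.42). GADD45A, GDF15, CDKN1A and PLK3 (red) lie wholly above 2-fold, and MDM2 and SESN1 have their values inside the band.

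CDKN1A encodes p21, the inhibitor of cyclin-dependent kinases (CDKs) that stops cells in G1 and also binds the replication clamp PCNA. It had 1823 counts with glucose and 7151 without, or 65.5 and 233 CPM. The ratio was 3.55 (counting interval 3.37 to 3.74), at percentile 97.9 of the log2 ratios of all measured genes. Without glucose, 4 of the 9 exons of its gene model had more than 10 reads, against 2 with glucose, by the authors' deposited exon tally. The gene model (hg19) spans chr6:36644237-36655116 on the plus strand and merges 5 RefSeq transcripts, so the start site used was not resolved.

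The relatives of p21 in the CIP/KIP family had ratios on opposite sides of 1. CDKN1C, which encodes p57, had 60 counts with glucose and 585 without (2.15 and 19.0 CPM, log2 ratio 3.14) and passed the rule as higher. CDKN1B, which encodes p27, had 58.9 and 39.7 CPM (log2 ratio -0.57), and the ratio of CDKN1A was 5.27 times that of CDKN1B (counting interval 4.81 to 5.76). Outside this family, CDKN2C (-1.78), CDKN2D (-1.79) and the CDK phosphatase gene CDKN3 (-1.62) were lower by the rule. CDKN2A and CDKN2B, the p16 and p15 genes, had 3 counts or fewer in each library and were not measured. Thus 1 of the 5 other measured CDK inhibitor genes was higher and 3 were lower, against 3.74% and 6.20% of all measured genes.

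Of 13 cyclin, CDK and PCNA genes whose products p21 binds, 8 were lower without glucose and 0 higher, and the median log2 ratio was -1.47. Over all measured genes 6.20% were lower and 3.74% higher by the rule. CCNA2, cyclin A2, stood at 203 and 42.1 CPM (-2.27) and CDK1 at 205 and 53.4 CPM (-1.94). CCNB1, cyclin B1 (-1.77), and PCNA (-1.75) were also lower, as were CDK2 (-1.70), CDK6 (-1.47), CCND3 (-1.56) and CCNE2 (-1.41). CCND1, cyclin D1, had 359 CPM in both libraries, CDK4 had 187 and 260 CPM (0.48), and CCNA1 and CCNE1 had log2 ratios of 0.35 and -0.27. CCND2 had the highest ratio of the list on few counts, 8 and 33 (1.90, interval 0.76 to 3.23), and did not pass the rule.

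GADD45A and GADD45B encode small acidic proteins that bind PCNA, the CDK1-cyclin B complex and the kinase MTK1, and so couple stress to cell cycle arrest and p38 and JNK signalling. GADD45A had 695 counts with glucose and 3929 without, or 25.0 and 128 CPM. Its ratio of 5.12 (counting interval 4.72 to 5.56) was the highest of the 9 genes and ranked 154 from the top among the 14239 measured genes. GADD45B had 778 and 1380 counts, or 27.9 and 44.9 CPM, a ratio of 1.61 (interval 1.47 to 1.76) that stayed under 2-fold. The 2 paralogs stood near each other with glucose, at 18.99 RPKM for GADD45A and 20.95 RPKM for GADD45B with overlapping counting intervals, and apart without it, at 93.7 and 32.4 RPKM. The ratio of GADD45A was 3.19 times that of GADD45B (interval 2.83 to 3.59). GADD45G, the third of the family, had 14 and 23 counts, too few to place its ratio on either side of 1 (log2 interval -0.45 to 1.65).

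Of 10 measured genes of the MTK1, p38 and JNK branch on which GADD45 proteins act, 0 were higher and 1 was lower, MAP2K6, a p38 kinase kinase, with 4.38 and 0.846 CPM (named after its value was seen). MAP3K4, which encodes MTK1 itself, had 144 and 89.4 CPM (-0.68), and MAPK14, the p38 alpha gene, 143 and 74.0 CPM (-0.95). The median log2 ratio of the branch was -0.20, and the rule called 3.74% of all measured genes higher and 6.20% lower.

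GDF15 encodes a secreted stress cytokine of the TGF-beta superfamily that signals to the brain stem through GFRAL. It had 180 counts with glucose and 874 without, or 6.46 and 28.4 CPM. The ratio was 4.40 (counting interval 3.74 to 5.19), at percentile 98.6 of all measured genes. Both of its exons had more than 10 reads in each library. MIR3189, a microRNA gene inside the GDF15 gene model on the same strand, had 0 counts in both.

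SESN1 and SESN2 encode sestrins, which bind GATOR2 and so hold back mTORC1, SESN2 as a leucine sensor. SESN2 had 2126 counts with glucose and 4036 without, or 76.3 and 131 CPM, a ratio of 1.72 (counting interval 1.63 to 1.81). SESN1 had 364 and 310 counts, or 13.1 and 10.1 CPM, and was 1.30-fold lower without glucose (interval 1.11 to 1.51). The paralogs thus lay on opposite sides of 1, and the ratio of SESN2 was 2.23 times that of SESN1 (interval 1.90 to 2.62), though neither passed the rule of 2-fold. SESN3 was scarce, at 9 and 26 counts (log2 ratio 1.39, interval 0.25 to 2.67).

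Of 22 genes of the sestrin targets GATOR1 and GATOR2, the Rag GTPases, TSC, AMPK and mTORC1, plus DDIT4, 1 was higher and 0 lower. The rule called 3.74% of all measured genes higher and 6.20% lower. The median log2 ratio of the 22 genes was 0.16. The higher gene was RRAGC, a Rag GTPase, at 4.60 and 16.8 CPM (1.87). The other Rag GTPase genes, RRAGA (0.69), RRAGB (0.96) and RRAGD (0.78), had ratios above 1 but did not pass the rule. PRKAA2, an AMPK subunit gene, had the lowest ratio of the list (-0.91). The GATOR2 subunits MIOS, SEH1L, WDR24 and SEC13 had log2 ratios of 0.28, 0.45, 0.44 and 0.33, and WDR59 one of -0.19. DDIT4, which encodes the mTORC1 inhibitor REDD1, had 309 and 405 CPM (0.39).

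PLK3 encodes a polo-like kinase of the stress response. It had 128 counts with glucose and 391 without, or 4.60 and 12.7 CPM, a ratio of 2.77 (counting interval 2.26 to 3.41). More than 10 reads fell in 6 of its 15 exons with glucose and in 13 of 15 without, by the authors' deposited tally. TCTEX1D4, on the other strand, overlaps the end of PLK3 by 81 bases and had 10 and 13 counts. Since the use of strand is not given, reads in that overlap cannot be assigned to one gene, but TCTEX1D4 held far fewer reads than PLK3 in either library.

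The other polo-like kinases differed from PLK3. PLK1, the mitotic kinase, had 115 and 30.2 CPM and was lower by the rule (-1.93), and PLK4, the centriole duplication kinase, had 78.1 and 37.4 CPM (-1.06) with an interval that reached inside 2-fold (-1.17 to -0.96). PLK2, which like PLK3 is stress-induced, had 495 and 568 CPM (0.20). The ratio of PLK3 was 2.41 times that of PLK2 (counting interval 1.97 to 2.95).

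BTG2 encodes an antiproliferative protein that recruits the CCR4-NOT deadenylase to mRNAs. It had 69 counts with glucose and 34 without, or 2.48 and 1.11 CPM, and was 2.24-fold lower without glucose (counting interval 1.47 to 3.48). These few counts did not place it beyond 2-fold. Only 1 of its 2 exons had more than 10 reads in either library. BTG1, its closest relative, was far more abundant and went the other way, at 80.2 and 164 CPM (1.03, interval 0.96 to 1.10), just short of the rule. The ratio of BTG2 was 0.219 times that of BTG1 (interval 0.144 to 0.330). BTG3 (0.33) and TOB1 (0.27) lay within 2-fold, and TOB2 had 55.1 and 26.7 CPM (-1.04, interval -1.17 to -0.92). Of 12 CCR4-NOT, PRMT1 and PABPC1 genes whose products work with BTG and TOB proteins, 0 passed the rule in either direction, with a median log2 ratio of -0.10. Over all measured genes 3.74% were higher and 6.20% lower.

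MDM2 had 2388 counts with glucose and 2702 without, or 85.7 and 87.9 CPM. Its ratio of 1.03 had a counting interval of 0.970 to 1.08, the only one of the 9 that included 1. All 11 exons had more than 10 reads in both libraries. Its partner MDM4, which restrains p53 without degrading it alone, had 84.0 and 132 CPM (0.66), and the ratio of MDM2 was 0.650 times that of MDM4 (interval 0.603 to 0.701).

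Per length of gene model, in the authors' deposited RPKM, the order of the 9 genes changed between the libraries. With glucose it ran CDKN1A (25.6), SESN2 (22.6), GADD45B (20.95), GADD45A (18.99), MDM2 (11.99), GDF15 (5.55), SESN1 (4.89), PLK3 (2.02) and BTG2 (0.94). Counting intervals of neighbours overlapped for SESN2 with GADD45B, GADD45B with GADD45A, and GDF15 with SESN1. Without glucose GADD45A led at 93.7 RPKM, followed by CDKN1A (87.6), SESN2 (37.4), GADD45B (32.4), GDF15 (23.5), MDM2 (11.8), PLK3 (5.38), SESN1 (3.63) and BTG2 (0.40), and no neighbours overlapped. GADD45A moved from the fourth place to the first, GDF15 passed MDM2, and PLK3 passed SESN1.

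Other p53 targets were mostly close to level. Of 33 measured targets outside the 9 genes, 2 were higher and 1 lower. Their median log2 ratio was 0.23, and 25 of the 33 had a ratio above 1, or 24 with scaling by total counts. Among all measured genes the median was 0.01, and 7252 of 14239 had a ratio above 1. The higher genes were EDA2R, a death receptor family gene, at 65 and 306 counts (2.09), and SPATA18, a mitochondrial quality control gene, at 11 and 63 counts (2.38), both named after their values were seen because they stayed below 10 CPM. The lower gene was APAF1, the apoptosome scaffold, at 68.1 and 17.8 CPM (-1.93). BBC3, an apoptosis gene, had 69 and 166 counts and a log2 ratio of 1.12, with an interval that reached inside 2-fold (0.71 to 1.55). Values within 2-fold included the apoptosis genes BAX (0.34), PMAIP1 (0.82) and FAS (-0.32), the cyclin G gene CCNG1 (0.20), the repair genes XPC (0.04) and DDB2 (0.49), and the p53 phosphatase gene PPM1D (0.08). The shares called, 2 of 33 higher and 1 of 33 lower, compare with 3.74% and 6.20% of all measured genes.

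Among 16 genes that regulate p53, 0 were higher and 1 was lower, CHEK1, the checkpoint kinase of replication stress, at 60.3 and 25.7 CPM (-1.23). ATM (0.03), ATR (0.15) and USP7 (0.07) were nearly level, CHEK2 had 13.5 and 7.25 CPM (-0.89), and the ribosomal protein genes RPL5 and RPL11, whose products can bind MDM2, had log2 ratios of 0.42 and 0.69. The median was 0.05, and over all measured genes the rule called 3.74% higher and 6.20% lower.

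Of 25 measured immediate-early genes, the class to which GADD45B, BTG2 and PLK3 also belong, 7 were higher without glucose and 2 lower, around a median log2 ratio of 0.22. The shares over all measured genes were 3.74% higher and 6.20% lower. FOS (33 and 346 counts, 3.25), FOSB (2.12), CTGF (1.97) and DUSP5 (1.75) led the higher ones. NR4A3 (-2.23) and JUNB (-1.59) were the lower ones. PLK3 (1.47) passed the rule as these 7 did, GADD45B (0.68) lay within 2-fold and BTG2 (-1.16) had a ratio below 1.

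**Figure D3:**
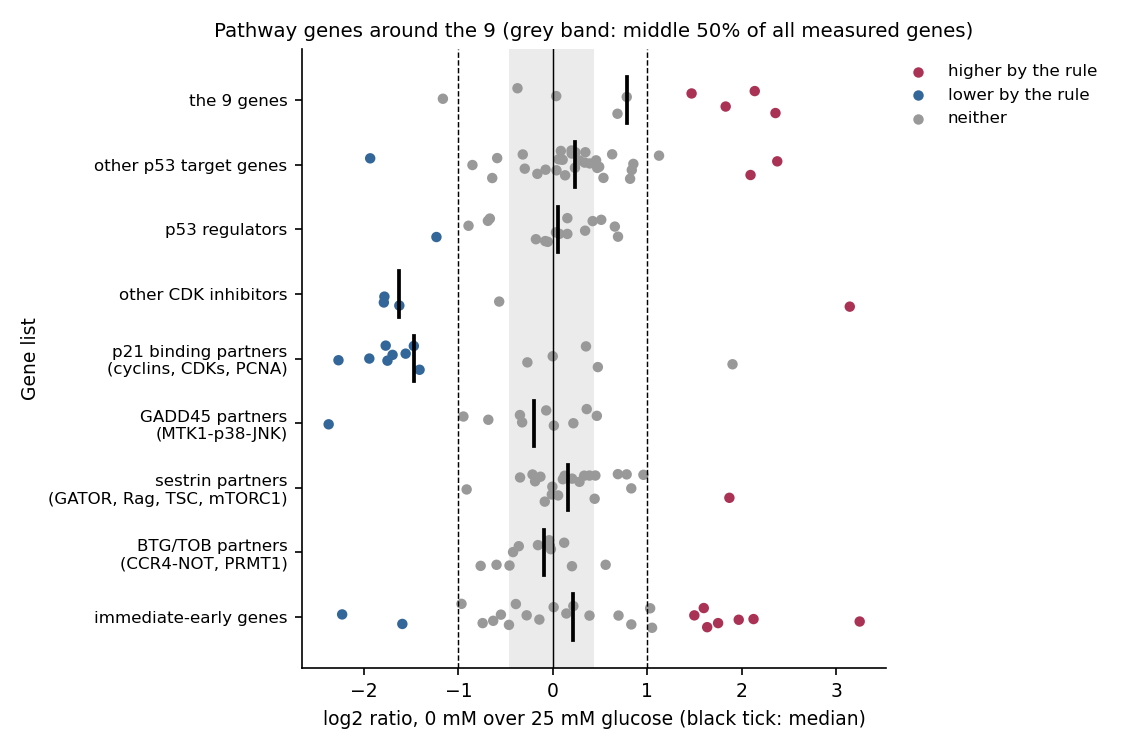
log2 ratios, 0 mM over 25 mM glucose, of the 9 genes and of the measured genes of 8 lists around them; each point is a gene, red when higher and blue when lower by the 2-fold rule, with the median as a black tick and the middle 50% of all measured genes as a grey band. The p21 binding partners have their median at -1.47 and the other p53 targets at 0.23.

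The genes nearest in level to the higher 4, by Euclidean distance in log2 CPM over the 2 libraries, were UPP1 and RND3 for CDKN1A (distances 0.11 and 0.13), and RCAN1 and KIF26B for GADD45A (0.14 and 0.15). HSPBAP1 and PPAPDC1B were nearest to GDF15 (0.22 and 0.25), and C7orf63 and FICD to PLK3 (0.02 and 0.06). With 2 libraries, this likeness says only that both levels were similar.

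Short gene models tended to have higher ratios in these libraries, with a median log2 ratio of 0.31 in the shortest of 10 length classes and -0.21 in the longest. GADD45A, GADD45B and GDF15 fall in the second shortest class (median 0.17) and MDM2 in the longest. Relative to the median of its own length class, the log2 ratio was 2.19 for GADD45A, 1.97 for GDF15, 1.78 for CDKN1A, 1.42 for PLK3 and 0.25 for MDM2, and the same 4 genes passed the rule.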

How the data were processed

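RNA from 2 cultures of 786-O cells, extracted with Trizol per the labels' protocols, was sequenced, 1 library per condition. The authors deposited raw counts, RPKM values and the number of exons with more than 10 reads per gene model, per the file headers. The deposited RPKM values equalled count over length over a constant for each library (27.1 and 31.0 in units of 1e6 reads). Gene models are on hg19, as listed in the submitters' processing notes. Aligner, counter and use of strand are not stated in the labels or headers. Rows that repeated the place and counts of another symbol (538 of 24364) were dropped and counts summed by symbol. Effective library sizes came from TMM in edgeR 4.0.16 (R 4.3.3; factors 1.02 and 0.981). Ratios carry exact Clopper-Pearson intervals of the share of counts, levels exact Poisson ones (scipy 1.17.1), and ratios of 2 genes' ratios sample odds ratios, all at 95%. Intervals cover counting error only, since there was 1 library per condition. PCR copies are not independent molecules, so the intervals may be too narrow even for that error. The 95% half-width of the log2 ratio ran from 0.07 for CDKN1A to 0.62 for BTG2. No test was possible. Genes with at least 20 counts over both libraries were measured; a count of 0 was set to 3. The procedure was tested on simulated Poisson counts. These hold counting error only, so that test cannot speak to differences between cultures. The 9 genes and all lists were chosen with earlier results of these data known. Named were all 9 genes, their relatives, up to 4 genes past the rule per list with at least 10 CPM in either library, and others from the lists to show a role, chosen after their values were seen; the nearest 2 genes per higher gene left out small RNAs. Older symbols of 5 list genes were matched by hand-written aliases. Promoter sequences are RefSeq's (GRCh38.p14), used only for sequence.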

Additional observations from a re-analysis of the deposited data

How the results depend on the processing

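No paired analysis was possible because there was a single library for each glucose level, which also left no replicate to omit. Under scaling by total counts, DESeq2 size factors or upper quartiles, TMM without small RNA genes, minimum counts of 1 or 100, 1 CPM added, and subtraction of the length class median, CDKN1A, GADD45A, GDF15 and PLK3 were the members past the rule; intervals beyond 1.5-fold added SESN2 (10.2% of all genes called higher) and beyond 3-fold dropped PLK3 (1.38%). MDM2 ranged from -0.02 (total counts) to 0.25 (length class) on the log2 scale, and BTG2 from -1.22 to -0.72 (1 CPM added).

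Counts in the lists moved mainly with the size asked for, as did the shares of all measured genes called. Those shares were 10.2% higher and 12.6% lower beyond 1.5-fold, and 1.38% higher and 2.13% lower beyond 3-fold. Beyond 1.5-fold, 4 other p53 targets were higher and 2 lower, 1 p53 regulator higher and 3 lower, 2 paralogs higher and 3 lower, 1 p21 partner higher, 3 GADD45 partners lower, 4 sestrin partners higher and 1 lower, and 1 BTG/TOB partner lower. Beyond 3-fold, 1 other p53 target was higher, 0 p53 regulators, 1 CDK inhibitor and 4 p21 partners were lower, and 4 immediate-early genes were higher and 1 lower. Other p53 targets had 1 higher gene with a minimum of 100 counts and 1 with 1 CPM added. Paralogs had 2 lower genes with total counts and 2 higher after the length class median was subtracted. Genes with few counts, such as BTG2, GADD45G and SESN3, are limited by depth.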
